A study of Mus musculus with 9 samples.

Results

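Lungs from mice given nanocapsules of an antibody against PD1 were compared with lungs from mice given phosphate-buffered saline (PBS). The 6 libraries of these groups, 3 from each, were taken from the 9 of the study, and the 3 lungs treated with free antibody were left out. All mice were female BALB/c, aged 4 to 6 weeks, and all carried 4T1 cells, a mouse mammary carcinoma line, injected into the right flank, so the PBS lungs came from tumour-bearing mice too. PBS or the nanocapsules (labelled 150 µg per mouse) were given on days 7 and 14 after engraftment, and lung tissue was collected on day 21. The labels number the lungs but name no animals, so p-values here reflect only how far these samples spread, which may be technical. The study addressed possible immune-related adverse effects of the treatments in lung.

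Expression is given as TPM, an abundance corrected for transcript length whose values sum to 1000000 in each library. TPM keep no sequencing depth, which was therefore unknown. Of 45706 genes in the table, the 12610 that reached 1 TPM in 3 or more of the 6 lungs were tested. The other 33096 were not, and 23234 of them were listed at 0 in all 6 lungs. Differences are given on the scale of log2(TPM + 1), nanocapsule minus PBS, which understates the change of genes with low TPM. A gene was called when its p-value from limma, adjusted by Benjamini-Hochberg over the 12610 genes, was under 0.05.

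PD1 is a receptor that restrains T cells once they are activated, and its ligand PD-L1 is carried by tumour cells and myeloid cells. Antibodies that block the pair release T cells from inhibition, and inflammation of the lung is among the known adverse effects of such antibodies in patients. Lungs of mice with 4T1 tumours are known to fill with neutrophils and immature myeloid cells. Heat shock proteins are chaperones that hold and refold proteins. Their genes are induced by the transcription factor HSF1, which binds inverted repeats of a short GAA unit in their promoters.

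The gene called between the groups, Hspa1b, encodes an inducible chaperone of the HSP70 family and lies beside its near-identical copy Hspa1a. Their upstream sequences are shown first because the largest chaperone differences were in this pair. The sequences are RefSeq's, on GRCm38.p6, and both read 5′ to 3′ on the minus strand of chromosome 17 up to the base before the gene start. Hspa1b is shown from chr17:34959239-34959488 and Hspa1a from chr17:34972157-34972406, with capitals marking a pair of inverted GAA units.
Hspa1b: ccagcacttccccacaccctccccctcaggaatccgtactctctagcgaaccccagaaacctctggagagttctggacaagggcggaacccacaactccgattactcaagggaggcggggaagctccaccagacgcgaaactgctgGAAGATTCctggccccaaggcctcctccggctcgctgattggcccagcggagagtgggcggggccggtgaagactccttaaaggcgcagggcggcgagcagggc
Hspa1a: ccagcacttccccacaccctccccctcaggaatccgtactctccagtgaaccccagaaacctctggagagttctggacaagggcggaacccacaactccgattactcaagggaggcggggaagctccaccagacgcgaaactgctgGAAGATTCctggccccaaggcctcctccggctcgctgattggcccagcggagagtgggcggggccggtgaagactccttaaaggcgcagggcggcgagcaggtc
The 250 bases were 98.8% identical, with 3 differences, T44C, C47T and G249T, counted from the first printed base and written from Hspa1b to Hspa1a. In both, the capital letters began 104 bases before the gene start.

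The searched pair of units was GAANNTTC or TTCNNGAA, which are each their own reverse complement, so that both strands are covered. It was present in 12.84% of all 32851 RefSeq promoters of the same 300-base kind (250 bases before to 50 after a start), which belong to 27025 genes, 14.55% of which had a match in at least 1 promoter. Of the 20 chaperone genes described here, 17 had a promoter entry and 9 of these had a match (52.94%). The list is one of known heat shock genes, so this share describes their promoters and not these lungs. Stip1, Chordc1 and Dnajb1, described below as lower, had a promoter entry but no match. So did Bag3 and Ahsa1, which differed less. Whether a match goes with a difference was not tested. A longer form, in which a further inverted unit follows after the same gap on either side, contains the shorter one, was searched on both strands and was present in 0.4657% of promoters. Among the chaperones it was found in 1 place, between Hspd1 and Hspe1, which encode the mitochondrial chaperonin HSP60 and its partner HSP10 and are read in opposite directions from a shared promoter. The 30-base stretches that hold the matches of 3 further chaperones are shown on the strand of the gene, Dnaja1 from chr4:40722333-40722362 (plus), Hsph1 from chr5:149636351-149636380 (minus) and Hspe1 from chr1:55088053-55088082 (plus).
Dnaja1: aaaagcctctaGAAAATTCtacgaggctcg
Hsph1: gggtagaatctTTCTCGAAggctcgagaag
Hspe1: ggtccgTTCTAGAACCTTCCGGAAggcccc
These matches are letters in a window and not measured binding sites. The Dnaja1 stretch lies past the gene start used here, 40722150, and its match began 124 bases before a later RefSeq start. The Hsph1 match likewise lay past its gene start, 149636376 on the minus strand, and began 33 bases before a later start.

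Hspa1b (ENSMUSG00000090877, protein coding, chromosome 17 from 34956436 to 34959238 of GRCm38) fell in the nanocapsule lungs. Its level was 29.1, 53.5 and 39.4 TPM in PBS lungs 1, 2 and 3, and 6.04, 8.71 and 5.80 TPM in nanocapsule lungs 1, 2 and 3. The highest nanocapsule lung lay far below the lowest PBS lung. The means were 40.7 ± 12.2 and 6.85 ± 1.62 TPM (SD, n = 3). The log2 difference was -2.39 with an SE of 0.23 and a limma adjusted p of 0.0321. This was 1 gene of 12610, or 0.00793% of those tested. The call was lost in fits without PBS 3, nanocapsule 1, nanocapsule 2 or nanocapsule 3, with adjusted p of 0.145, 0.0935, 0.0506 and 0.284, while its log2 difference lay between -2.60 and -2.17 with single lungs left out. It was also lost with median-of-ratios scaling (adjusted p = 0.131), quantile normalization (0.176), no filter on low values (0.438) and no intensity trend (0.104). Without PBS 3 and nanocapsule 2 together, the lungs set apart below by Rag1 and Dntt, the adjusted p was 0.115.

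Below that threshold, genes stood lower more often than higher in the nanocapsule lungs. The median log2 difference of all tested genes was -0.11, 9008 genes (71.4%) had lower means and 3602 had higher ones. At an unadjusted p under 0.05, limma gave 1057 lower genes (8.38% of those tested) and 126 higher genes (0.999%), together 9.38%. In 1522 genes (12.1%) the highest nanocapsule lung was under the lowest PBS lung, and in 305 genes (2.42%) the lowest nanocapsule lung was over the highest PBS lung. Differences of at least 1 on the log2 scale were found for 120 lower and 10 higher genes. The lower side depended on the scaling. Median-of-ratios scaling moved the median to 0.003 and gave 668 lower and 477 higher genes at the same p, so 58.3% were lower in place of 89.3%. Quantile normalization gave 626 lower and 537 higher genes, or 53.8% lower. Counts of list members below stand against these shares of all genes, 8.38% lower and 0.999% higher at an unadjusted p under 0.05 and 12.1% lower without overlap. Counts of members with lower means stand against the 71.4% of all genes with lower means. The medians of the gene lists are given beside the shift of -0.11, and an exact permutation test of 3 lungs against 3 cannot give a two-sided p below 0.1.

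**Figure D1:**
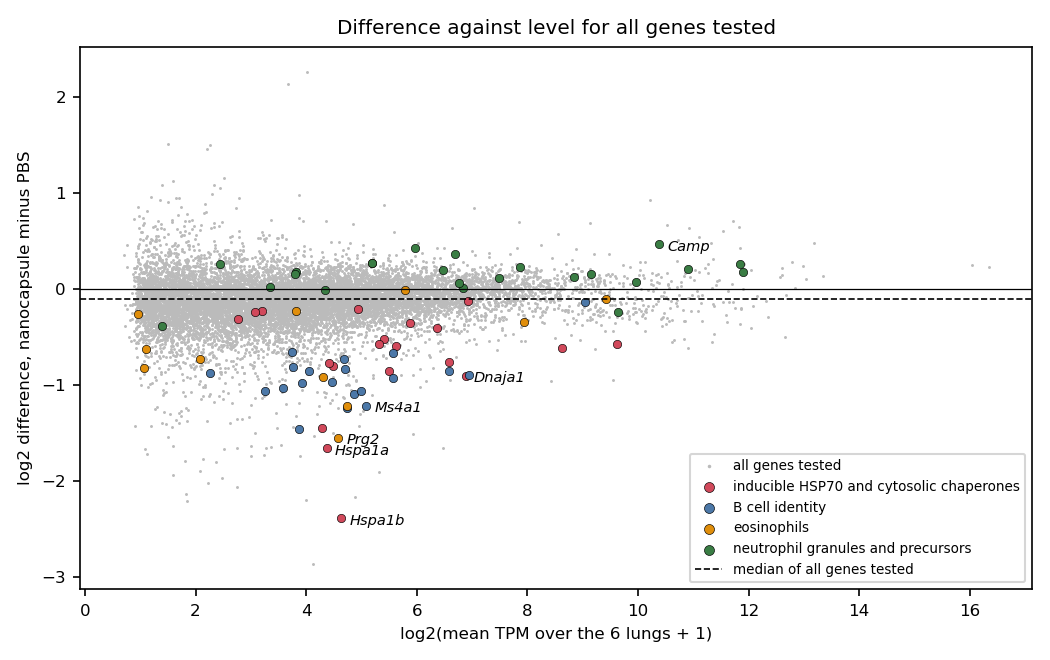
Difference (log2, nanocapsule minus PBS, vertical axis) against level (log2 of mean TPM + 1 over the 6 lungs, horizontal axis) for the 12610 genes tested, in grey, with the members of 4 gene lists coloured and the median of all genes as a dashed line at -0.11. Chaperone (red), B cell (blue) and most eosinophil (orange) genes lie below the dashed line, and most neutrophil granule genes (green) lie above it.

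The libraries were alike over the whole transcriptome and differed in a few marker genes of cell types. Spearman correlations were 0.974 to 0.982 within groups and 0.970 to 0.980 between them, and between 12194 and 12981 genes reached 1 TPM in a lung. S100a8 and S100a9, the neutrophil calprotectin genes, together took 12.1 to 16.7% of a PBS lung's TPM and 15.5 to 17.5% of a nanocapsule lung's. Transcripts of the mitochondrial genome took 2.37 to 4.38% and 2.22 to 3.30%. PBS 2 was the PBS lung nearest to the nanocapsule lungs in both shares. Surfactant and club cell genes marked every library as lung, but nanocapsule 1 stood apart in Sftpc, the surfactant protein C gene, with 3410 TPM against 343 to 1021 TPM in the other 5 lungs. Transcripts of immature thymocytes were high in 1 lung of each group. Rag1 was at 8.62 TPM in PBS 3 and 4.72 TPM in nanocapsule 2 and at most 0.91 TPM elsewhere, and Dntt was at 14.1 and 12.1 TPM in those lungs and at most 1.04 TPM elsewhere. The heart gene Myl7 was at 7.76 and 9.31 TPM in nanocapsule lungs 1 and 3 and at most 2.08 TPM in the others. Another heart gene, Myl4, overlapped, at 5.17, 4.21 and 7.33 TPM in PBS lungs and 9.43, 3.04 and 5.17 TPM in nanocapsule lungs. Skeletal muscle Myh4 was listed at 0 in all 6 lungs, and the fat cell gene Adipoq was at 0.13 TPM or less.

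**Figure D2:**
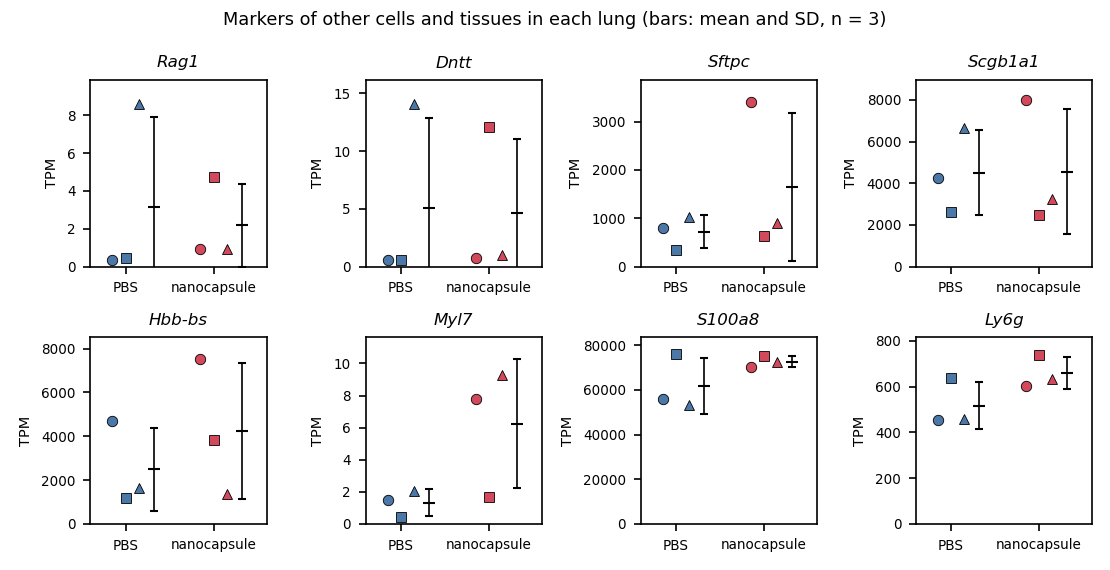
TPM of 8 markers in each lung, with PBS lungs in blue, nanocapsule lungs in red and black bars for the mean and SD (n = 3). Rag1 and Dntt, of immature thymocytes, are high in PBS 3 and nanocapsule 2, and Sftpc is highest in nanocapsule 1.

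Cytosolic and mitochondrial chaperones stood lower together. All 20 listed genes were tested, all 20 had lower means, and 15 had an unadjusted p under 0.05, against 8.38% of all genes. In 17 of the 20 the groups did not overlap, against 12.1% of all genes. The median of the list was -0.59, and -0.48 relative to the median of all genes. With single lungs left out, 12 to 15 members kept an unadjusted p under 0.05, and 12 and 13 did with median-of-ratios and quantile scaling. Without the 2 lungs high in Rag1 and Dntt, the number was 10 and the median -0.38.

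Within the HSP70 group, Hspa1a had 19.6, 44.6 and 28.1 TPM in the PBS lungs and 8.37, 8.71 and 8.57 TPM in the nanocapsule lungs. The nanocapsule lungs were nearly equal, and all lay below the PBS lungs, which varied more. The log2 difference was -1.66 (SE 0.25, limma adjusted p = 0.12), and since reads can be exchanged between the copies, the level of each is uncertain. Hspa8, the constitutive HSC70, and Hspa4, a nucleotide exchange factor, had differences of -0.57 (SE 0.16) and -0.21 (SE 0.13). Hsph1, another exchange factor of the HSP110 kind, was at 25.8, 19.0 and 38.4 TPM in the PBS lungs and 10.2, 6.74 and 11.01 TPM in the nanocapsule lungs. Its groups did not overlap, and its difference was -1.45 (SE 0.26, limma adjusted p = 0.16).

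Co-chaperones differed in size. Dnaja1, a J-domain protein that hands substrates to HSP70 (chromosome 4 from 40722150 to 40737149), was at 145, 145 and 169 TPM in the PBS lungs and 83.7, 72.0 and 88.6 TPM in the nanocapsule lungs. The spread within each group was small beside the gap between them, with a difference of -0.90 (SE 0.12, limma adjusted p = 0.0853). Dnajb1, the J-domain partner of inducible HSP70, was lower by less, at 63.3, 70.4 and 60.7 against 49.4, 49.7 and 52.5 TPM, a difference of -0.35 (SE 0.10). Stip1, the adaptor between HSP70 and HSP90, and Chordc1, an HSP90 co-chaperone, had differences of -0.85 and -0.80. Bag3 and Ahsa1, which stimulate nucleotide release from HSP70 and the ATPase of HSP90, had differences of -0.23 and -0.13 and unadjusted p of 0.05 or above.

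The HSP90 genes are far more abundant than the HSP70 pair on the TPM scale. Hsp90aa1, the stress-responsive cytosolic form, was at 114, 110 and 131 TPM in the PBS lungs and 70.1, 61.6 and 78.3 TPM in the nanocapsule lungs, a difference of -0.76 (SE 0.12, limma adjusted p = 0.134). The constitutive form Hsp90ab1 had a difference of -0.61. The bidirectional pair Hspd1 and Hspe1 had differences of -0.60 and -0.41. Hsf1 itself was at 14.99, 13.1 and 18.99 TPM in the PBS lungs and 12.5, 10.6 and 12.97 TPM in the nanocapsule lungs, a difference of -0.35 (SE 0.16) with an unadjusted p of 0.0622, and Hsf2 had a difference of 0.12.

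**Figure D3:**
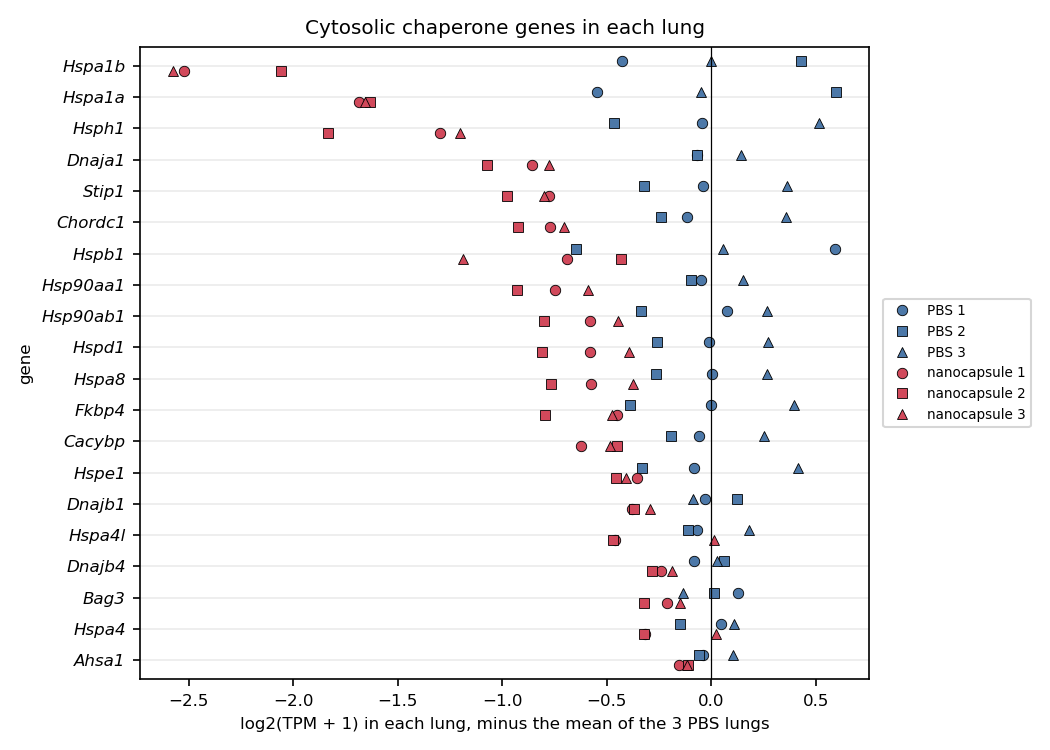
The 20 cytosolic and mitochondrial chaperone genes, each lung as a point at its log2(TPM + 1) minus the mean of the 3 PBS lungs (horizontal axis), PBS in blue and nanocapsule in red, with a symbol for each replicate number. Nanocapsule points lie left of all PBS points in 17 of the 20 genes, and the gap is widest for Hspa1b.

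Chaperones of the endoplasmic reticulum, which belong to the unfolded protein response, were lower by less. Of 23 tested genes 22 had lower means, 10 had an unadjusted p under 0.05 and none had one in the higher direction. The median was -0.26. Hspa5, the reticulum's HSP70 known as BiP, was at 317, 271 and 296 TPM in the PBS lungs and 192, 185 and 230 TPM in the nanocapsule lungs, with no overlap and a difference of -0.54 (SE 0.12). Pdia4, a disulfide isomerase, and Hsp90b1, the reticulum's HSP90, had differences of -0.54 and -0.39. Ddit3, the stress transcription factor CHOP, had a difference of -0.68. Only 2 kept an unadjusted p under 0.05 without PBS 1, 4 without PBS 3, 4 without nanocapsule 2, 2 without PBS 3 and nanocapsule 2 together and 6 with median-of-ratios scaling or no intensity trend.

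Genes that respond within minutes to handling or stimulation were tested beside the chaperones. Of 18 immediate early genes, 17 had lower means and 4 had an unadjusted p under 0.05, Fosb, Atf3, Jun and Ier3, with a list median of -0.16. Jun, a subunit of the AP-1 transcription factor, was at 221, 267 and 258 TPM in the PBS lungs and 182, 173 and 183 TPM in the nanocapsule lungs, a difference of -0.46 (SE 0.11). Fos, its usual partner, had a difference of -0.06. At that p stood 2 genes without PBS 2 and 7 without nanocapsule 3. Glucocorticoid-responsive genes had lower means in 13 of 15, with 4 at p under 0.05 and a median of -0.18. These were Fkbp5, a co-chaperone of the glucocorticoid receptor (16.4, 21.2 and 18.2 against 10.3, 11.4 and 13.9 TPM, difference -0.61), Ddit4, Cdkn1a and Per1. Tsc22d3, also known as GILZ, was 0.18 higher. The number was 2 without nanocapsule 1 or nanocapsule 2, or without both Rag1-high lungs. Per1 was also the 1 member at p under 0.05 of 14 circadian clock genes, whose median was -0.20, and the number was 4 without PBS 2 or nanocapsule 3, 2 without PBS 1 or with all 9 lungs in the fit, and 0 without nanocapsule 1, nanocapsule 2 or both Rag1-high lungs.

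B cell genes stood lower as a group. All 20 listed genes were tested, all 20 had lower means, 18 had an unadjusted p under 0.05, against 8.38% of all genes, and in 15 the groups did not overlap, against 12.1%. The median was -0.91, or -0.80 relative to that of all genes, and was the lowest among the 49 lists. This rank depended on the pseudocount of 1. With a pseudocount of 0.1 the median was -0.977, and that of regulatory T cell genes was -0.980. In bulk tissue, fewer cells of a type and less RNA per cell cannot be told apart. Ms4a1, the gene of the B cell surface protein CD20, was at 48.6, 34.2 and 56.9 TPM in the PBS lungs and 19.8, 16.3 and 21.4 TPM in the nanocapsule lungs. Every nanocapsule lung stood below every PBS lung, with a difference of -1.22 (SE 0.19, limma adjusted p = 0.131).

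Cxcr5, which guides B cells into follicles, was at 19.6, 19.1 and 22.6 TPM in the PBS lungs and 11.4, 9.48 and 11.9 TPM in the nanocapsule lungs, a difference of -0.85 (SE 0.14). Blk, a kinase downstream of the antigen receptor, and Cd79a and Cd79b, the receptor's signalling chains, had differences of -0.81, -0.89 and -0.85. The transcriptional regulators Pax5, Ebf1, Spib and Pou2af1 had differences of -1.03, -0.87, -0.97 and -1.05. Cr2, the complement receptor of follicular B cells and follicular dendritic cells, had the largest difference, -1.45 (SE 0.38), with 20.02, 9.40 and 33.05 against 8.31, 5.32 and 5.18 TPM. Cd37, which other leukocytes also carry, differed by -0.14. With single lungs left out, 15 to 18 of the 18 members kept an unadjusted p under 0.05, and without both Rag1-high lungs 13 did, with a median of -0.65.

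Antibody genes stood lower too. Of 18 tested genes of immunoglobulin constant regions and plasma cells, 16 had lower means, 9 had an unadjusted p under 0.05 (8.38% of all genes did) and the median was -0.75, which was -0.27 without both Rag1-high lungs. Ighm, the IgM heavy chain, was at 462, 352 and 550 TPM in the PBS lungs and 233, 209 and 249 TPM in the nanocapsule lungs, a difference of -0.96 (SE 0.16, limma adjusted p = 0.136). The kappa constant region Igkc was at 1070, 658 and 1251 against 665, 408 and 453 TPM, which overlapped. Ighg3, the IgG3 heavy chain, was at 19.7, 7.53 and 14.4 TPM in the PBS lungs and 3.02, 3.32 and 4.05 TPM in the nanocapsule lungs, without overlap, a difference of -1.65 (SE 0.29).

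The classes did not all stand in the same order. Igha, the IgA heavy chain, was at 90.8, 69.7 and 108 TPM in the PBS lungs and 170, 53.6 and 53.8 TPM in the nanocapsule lungs. Nanocapsule 1 had the highest and the other 2 nanocapsule lungs the lowest values, and the difference was -0.16. Sdc1 and Xbp1, a surface marker and a transcription factor of plasma cells that other lung cells also express, differed by 0.21 and -0.02. Irf4, a factor of activated B and T cells as well as plasma cells, was at 6.61, 6.68 and 9.95 against 3.95, 3.15 and 4.18 TPM, a difference of -0.86.

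Variable segments, which carry antigen specificity, were grouped by symbol after the data were seen. Of 344 immunoglobulin variable segments listed, 146 were tested. Of these 138 had lower means, 64 had an unadjusted p under 0.05 in the lower direction, against 8.38% of all genes, and none in the higher one. Their median was -0.87, and in 39 all nanocapsule lungs were lower, against 12.1% of all genes. Their summed level was 2753, 1567 and 3090 TPM in the PBS lungs and 1403, 968 and 1144 TPM in the nanocapsule lungs, so PBS 2 was the PBS lung nearest to the nanocapsule group. Without PBS 2, 57 genes were called, 55 lower and 2 higher, of which 22 were immunoglobulin variable segments, 13 belonged to the B cell or constant region lists, 5 were chaperones and 2 were T cell receptor segments. Near-identical segments can exchange reads, so single segments are uncertain. The filter can be met by the lungs of 1 group alone, so segments near 1 TPM may have entered through the group where they were higher. The share of all genes does not correct the counts of segments for this.

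**Figure D4:**
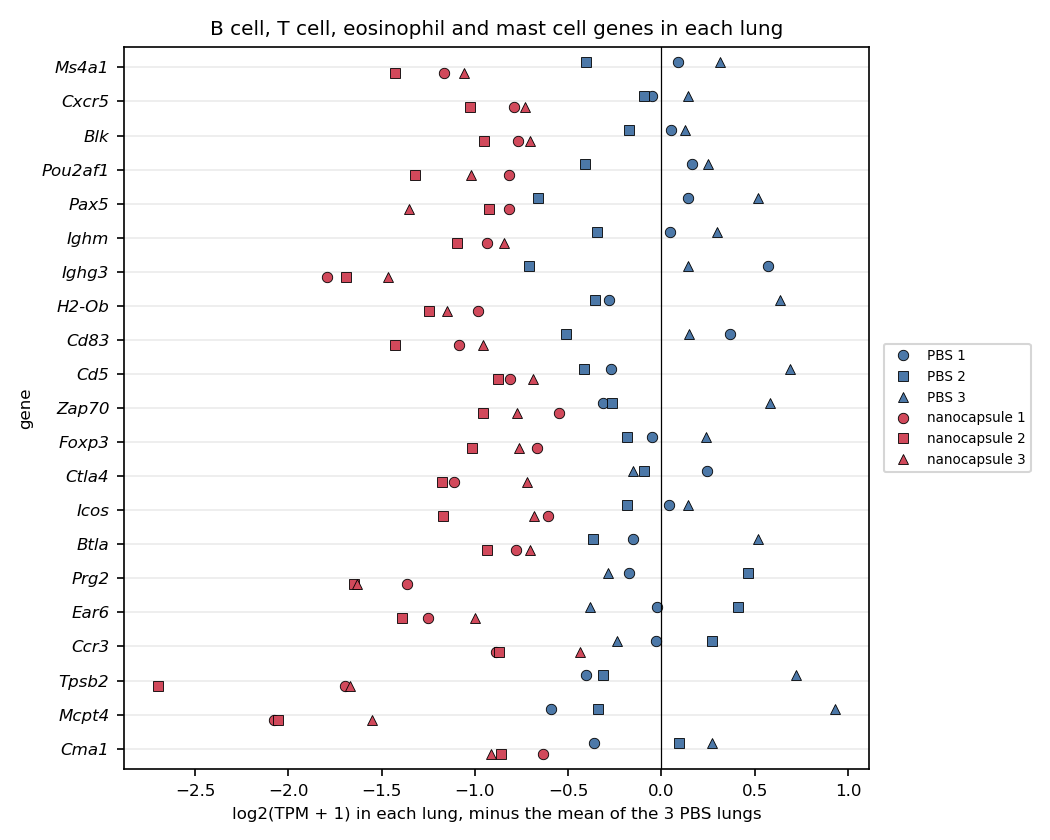
B cell, antibody, antigen presentation, T cell, eosinophil and mast cell genes, each lung as a point at its log2(TPM + 1) minus the mean of the 3 PBS lungs (horizontal axis), PBS in blue and nanocapsule in red. The 21 genes were chosen after their values were seen, each with the nanocapsule lungs left of the PBS lungs, and PBS 3 is the highest PBS lung for the T cell genes Cd5 and Zap70.

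MHC class II genes, which present antigen to helper T cells and are carried by B cells, dendritic cells and macrophages, had lower means in 12 of 12 tested members, with 7 at an unadjusted p under 0.05 and a median of -0.53. H2-Ob, a chain of the DO modulator found mainly in B cells, was at 21.0, 19.8 and 40.4 TPM in the PBS lungs and 12.5, 10.3 and 11.02 TPM in the nanocapsule lungs, a difference of -1.13 (SE 0.25). H2-Aa, a chain of the classical molecule I-A, was at 593, 430 and 731 against 500, 328 and 374 TPM, which overlapped, with a difference of -0.53. Ciita, the master regulator of the class, had a difference of -0.67. H2-DMa and Ctss, the latter a protease that trims the invariant chain, differed by -0.07 and -0.03. Fewer members were at that p in smaller sets of lungs, 3 without PBS 1, 2 without PBS 3, 2 without nanocapsule 2, 3 without nanocapsule 3 and 2 without both Rag1-high lungs. It was 4 with median-of-ratios scaling or no filter on low values.

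Dendritic cell genes were mixed. Of 15 tested, 13 had lower means, 3 were lower at an unadjusted p under 0.05 and 1 was higher, with a median of -0.23. Cd83, a maturation marker that activated B cells carry too, was at 37.5, 19.9 and 32.03 TPM in the PBS lungs and 13.1, 10.1 and 14.4 TPM in the nanocapsule lungs, a difference of -1.16 (SE 0.23). Siglech, of plasmacytoid dendritic cells, and Ccr7, the receptor that draws cells to lymph nodes, had differences of -0.88 and -0.58. Batf3, a factor of conventional type 1 dendritic cells, was at 10.7, 8.14 and 8.81 against 11.7, 13.9 and 15.2 TPM, 0.52 higher, while Clec9a, a surface receptor of the same cells, overlapped and differed by -0.01. The lower number was 6 without PBS 2, 2 without PBS 3 or nanocapsule 2, and 1, with none higher, without both Rag1-high lungs.

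T cell genes had lower means in 23 of 24 tested members, with 15 at an unadjusted p under 0.05 and a median of -0.57. Cd5, which tempers signals of the T cell receptor, and Zap70, a kinase of its pathway, had differences of -0.79 and -0.76. In both PBS 3 stood above the other PBS lungs, at 27.9 and 23.4 TPM against 12.1 to 13.9 TPM, and the groups did not overlap. The co-receptor Cd4 was at 16.1, 15.2 and 29.5 against 10.4, 12.9 and 12.6 TPM, a difference of -0.66. Cd8a was at 8.54, 7.83 and 26.3 against 9.11, 10.3 and 7.72 TPM, so the groups overlapped.

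PBS 3, the lung with the highest Rag1 and Dntt, was also the highest in T cell transcripts, whose summed level was 1414, 1500 and 2199 TPM in the PBS lungs and 1268, 1318 and 1405 TPM in the nanocapsule lungs. The number of T cell genes at an unadjusted p under 0.05 was 6 without PBS 3, 6 without nanocapsule 2 and 9 without nanocapsule 3. Without both Rag1-high lungs it was 1, and the median was -0.24, and with all 9 lungs in the fit it was 5. Of 8 tested genes of immature thymocytes 2 were at p under 0.05, Cd4 and Cd1d1, and the number was 5 without PBS 2, 1 without PBS 3 or nanocapsule 2 and 0 without nanocapsule 1, without both Rag1-high lungs or with all 9 lungs in the fit. Glycam1, a gene of the high endothelial venules of lymph nodes, was not tested and followed PBS 3 as well, at 12.6 TPM there, 2.28 TPM in nanocapsule 2 and under 1 TPM in the other lungs.

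Regulatory T cell genes had lower means in 11 of 11 tested members, 9 at an unadjusted p under 0.05, with a median of -0.62. Foxp3, which defines these cells, was at 3.82, 3.40 and 4.90 TPM in the PBS lungs and 2.16, 1.48 and 1.95 TPM in the nanocapsule lungs, without overlap, a difference of -0.81 (SE 0.20). Ctla4, an inhibitory receptor they carry at high levels, was at 6.09, 4.60 and 4.39 against 1.77, 1.65 and 2.63 TPM, a difference of -1.002 (SE 0.20, limma adjusted p = 0.219). For Ctla4, PBS 3 was the lowest PBS lung, while for Foxp3, Icos, Izumo1r and Tigit it was the highest. Without both Rag1-high lungs 4 members were at p under 0.05, with a median of -0.45. A filter of 5 TPM left 3 members to test, all 3 at that p.

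Among PD1, its ligands and other checkpoint genes, 12 of 13 tested members had lower means, 8 had an unadjusted p under 0.05 and the median was -0.54. Pdcd1, which encodes PD1, the target of the antibody, was at 2.597, 0.586 and 2.45 TPM in the PBS lungs and 0.680, 0.393 and 0.630 TPM in the nanocapsule lungs. It missed the filter and was not tested, and PBS 2 lay within the range of the nanocapsule lungs. Cd274, the gene of PD-L1, was at 38.5, 25.2 and 33.9 against 18.0, 18.2 and 30.7 TPM, which overlapped, a difference of -0.55 (SE 0.23). Btla, Tigit and Tnfrsf9, further receptors of T cell regulation, did not overlap and had differences of -0.81, -0.62 and -0.70. Havcr2, the gene of TIM-3, which myeloid cells also carry, differed by 0.05. The number at p under 0.05 was 4 without PBS 1, 4 without PBS 3, 5 without nanocapsule 1 and 5 without nanocapsule 2, 5 with quantile normalization and 1 without both Rag1-high lungs.

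Further lymphocyte genes were grouped by symbol after the data were seen. The Gimap genes, GTPases that support lymphocyte survival, had lower means in 9 of 9, with 8 at an unadjusted p under 0.05 and a median of -0.67. Gimap6 was at 61.9, 57.6 and 81.6 TPM in the PBS lungs and 40.5, 30.3 and 35.8 TPM in the nanocapsule lungs, a difference of -0.89 (SE 0.16). The number was 5 without PBS 3 and 2 without both Rag1-high lungs. Of 170 T cell receptor variable segments 51 were tested, 45 had lower means and 15 had an unadjusted p under 0.05, with a median of -0.65. That number was 9 without PBS 3, and 2 were then higher. As for the antibody segments, the filter can be met by 1 group alone, so the counts of low segments may depend on it.

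Cytotoxic lymphocytes and natural killer cells showed no common direction. Of 20 tested genes 13 had lower and 7 higher means, 4 were lower at an unadjusted p under 0.05 and none was higher, and the median of -0.16 was close to that of all genes. Quantile normalization turned the median to 0.01. Eomes, a transcription factor of these cells, was at 4.73, 5.73 and 6.71 TPM in the PBS lungs and 3.29, 2.46 and 2.94 TPM in the nanocapsule lungs, a difference of -0.78 (SE 0.18). The effector genes Gzmb and Ifng did not share a direction with all 6 lungs in the fit, and only Ifng stood lower, as Eomes did. Gzmb, the protease granzyme B, was at 9.17, 13.1 and 8.87 against 19.5, 10.4 and 8.3998 TPM, with nanocapsule 1 highest and the rest overlapping, a difference of 0.21 (SE 0.28) that was -0.12 without nanocapsule 1. Ifng, the interferon gamma gene, was at 2.50, 4.99 and 2.37 against 2.21, 2.52 and 1.12 TPM, a difference of -0.52 (SE 0.29). The number at p under 0.05 was 2 without PBS 3.

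Of 21 tested genes of the interferon gamma response, 20 had lower means, with 9 at an unadjusted p under 0.05 and a median of -0.35. Tgtp1, Gbp5 and Gbp2, GTPases of cell-intrinsic defence, did not overlap and had differences of -0.70, -0.56 and -0.36. Cxcl9, a chemokine that draws activated T cells, was at 2.25, 1.49 and 1.21 against 2.03, 1.22 and 1.04 TPM, a difference of -0.13 (SE 0.24) that was 0.03 without PBS 1. The number was 3 without PBS 3, 4 without nanocapsule 2 and 0 without both Rag1-high lungs. For type I interferon, 22 of 25 response genes had lower means, but only Stat2 had an unadjusted p under 0.05, and the median was -0.24. Without PBS 1, the PBS lung lowest in their sum, 15 did, and none did without both Rag1-high lungs.

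Eosinophil genes stood lower by value. Of 12 tested, 11 had lower means, 5 had an unadjusted p under 0.05 and the median was -0.48. The median was -0.80 with a pseudocount of 0.1 and -0.24 with a pseudocount of 5. Prg2, the major basic protein of eosinophil granules (chromosome 2 from 84980461 to 84983632), was at 29.999, 47.1 and 27.6 TPM in the PBS lungs and 12.6, 10.2 and 10.3 TPM in the nanocapsule lungs. The lowest PBS lung was PBS 3, and it was still above every nanocapsule lung, with a limma adjusted p of 0.0853 for its difference of -1.55 (SE 0.20). The eosinophil ribonuclease gene Ear6, which has close paralogs, was at 34.8, 47.4 and 26.9 against 14.3, 12.9 and 17.2 TPM, a difference of -1.21 (SE 0.20).

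The receptors of eosinophils followed at low levels. Ccr3, the eotaxin receptor, was at 4.12, 5.31 and 3.44 TPM in the PBS lungs and 1.83, 1.86 and 2.87 TPM in the nanocapsule lungs, and Il5ra, the receptor chain for interleukin 5, was at 1.43, 2.08 and 1.502 against 0.394, 0.228 and 0.973 TPM. Neither overlapped, with differences of -0.73 and -0.82. Il5ra, however, passed the filter only through the PBS lungs, where it was higher. Siglecf, shared with alveolar macrophages, overlapped and differed by -0.01, and the eotaxin genes Ccl11 and Ccl24 differed by -0.26 and -0.22. Epx, the eosinophil peroxidase, was not tested and had at most 1.85 TPM. The number at p under 0.05 was 5 to 7 with single lungs left out and 5 without both Rag1-high lungs.

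Mast cell proteases stood lower by value, and basophil genes stood near their level in PBS lungs. Of 14 tested genes 10 had lower means, 4 had an unadjusted p under 0.05, and the median was -0.19. The 4 were Tpsb2 and Tpsab1, the tryptases, and Mcpt4 and Cma1, the chymases. Tpsab1, at 2.35, 1.03 and 4.10 against 0.393, 0.0742 and 0.790 TPM, passed the filter only through the PBS lungs, where it was higher. Tpsb2 was at 4.30, 4.65 and 10.6 TPM in the PBS lungs and 1.16, 0.0812 and 1.21 TPM in the nanocapsule lungs, a difference of -2.02 (SE 0.37). Mcpt4 was at 3.02, 3.79 and 10.6 against 0.438, 0.458 and 1.07 TPM, a difference of -1.90 (SE 0.38). PBS 3 was the highest in both, and no nanocapsule lung reached the lowest PBS lung. Mcpt8, a protease of basophils, and Fcer1a, the IgE receptor chain of both cell types, differed by -0.07 and 0.13. Kit, the growth factor receptor of mast cells, differed by -0.05.

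Neutrophil genes stood at or slightly above their level in PBS lungs. Of 22 tested genes of granules and precursors 19 had higher means, 2 had an unadjusted p under 0.05, Camp and Prtn3, and the median was 0.17. Camp, the antimicrobial peptide of secondary granules, was at 1085, 1388 and 908 TPM in the PBS lungs and 1580, 1726 and 1319 TPM in the nanocapsule lungs, a difference of 0.46 (SE 0.18). PBS 2 was above nanocapsule 3, so the groups overlapped. Prtn3, the protease of primary granules, was at 46.1, 56.4 and 54.4 against 64.7, 91.0 and 58.8 TPM, without overlap. The number was 11 without PBS 2, 4 with median-of-ratios or quantile scaling, 1 without PBS 3 or nanocapsule 1, and 0 without PBS 1, nanocapsule 2 or both Rag1-high lungs.

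Genes of mature neutrophils were split, 11 higher and 10 lower of 21, with a median of 0.03 that was -0.05 without PBS 1, -0.10 without PBS 3, -0.07 without nanocapsule 3 and -0.11 without both Rag1-high lungs. Ly6g, the surface marker used to identify neutrophils in mice, was at 456, 638 and 458 TPM in the PBS lungs and 604, 739 and 634 TPM in the nanocapsule lungs, with PBS 2 inside the nanocapsule range, a difference of 0.36 (SE 0.15). Il1r2, the decoy receptor for interleukin 1, was at 128, 169 and 117 against 93.4, 96.1 and 112 TPM, a difference of -0.44. S100a8 had a difference of 0.26 (SE 0.30) and S100a9 one of 0.23 (SE 0.31), less than their errors. Prss57 and Serpinb10, a serine protease of neutrophil granules and a serine protease inhibitor of myeloid cells, were among the genes with the smallest p in the higher direction, with differences of 0.70 and 0.67.

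Monocyte and macrophage genes differed in both directions. Of 19 tested, 5 were lower and 3 higher at an unadjusted p under 0.05, against 8.38% and 0.999% of all genes. Cx3cr1, the fractalkine receptor of patrolling monocytes, was at 10.8, 12.5 and 8.69 TPM in the PBS lungs and 15.2, 15.9 and 23.5 TPM in the nanocapsule lungs, without overlap, a difference of 0.71 (SE 0.20, limma adjusted p = 0.399). Ccr2, the chemokine receptor of inflammatory monocytes, was at 95.8, 102 and 129 against 128, 135 and 170 TPM, 0.40 higher with an overlap at its edge. Fcgr1, the high-affinity IgG receptor, was at 15.2, 15.3 and 21.3 against 26.9, 24.6 and 21.9 TPM, 0.49 higher, and was the 1 of 7 Fc receptor genes at p under 0.05.

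The lower members were genes of resident and interstitial macrophages. C1qa, a chain of complement C1q, was at 43.6, 53.0 and 34.7 TPM in the PBS lungs and 29.9, 30.5 and 23.3 TPM in the nanocapsule lungs, a difference of -0.62 (SE 0.17). C1qc and C1qb had differences of -0.48 and -0.46, and Folr2 and Lyve1, which mark macrophages along vessels, -0.55 and -0.53. With single lungs left out, the lower and higher numbers were 1 and 1 without PBS 1, 3 and 2 without PBS 2, 3 and 4 without PBS 3, 3 and 3 without nanocapsule 1 and 2 and 2 without nanocapsule 3, while median-of-ratios scaling gave 1 and 7, quantile normalization 1 and 6, and all 9 lungs in the fit 1 and 2. Of 19 alveolar macrophage genes 18 had lower means and none had an unadjusted p under 0.05, with a median of -0.17, though 3 did without PBS 2 and 4 without nanocapsule 3, and the median was 0.02 without both Rag1-high lungs. Chil3 was at 1125, 734 and 722 against 655, 595 and 929 TPM and overlapped.

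Complement genes had lower means in 15 of 18, with 5 at an unadjusted p under 0.05. These were the 3 C1q chains, Cr2 and C4b, while C3, the central component, differed by -0.14. The number was 2 without PBS 1, 3 without nanocapsule 1 and 2 without nanocapsule 3. It was also 1 with median-of-ratios scaling or all 9 lungs in the fit, 2 with quantile normalization, and 3 with no filter, no trend or the rescaling without S100a8, S100a9, mitochondrial, haemoglobin and immunoglobulin genes. Of 28 inflammatory cytokine and chemokine genes, 23 had lower means, 2 were lower and 1 higher at p under 0.05, and the median was -0.21. The lower number was 0 without nanocapsule 2 or with median-of-ratios scaling, 4 without PBS 1 and 5 without nanocapsule 3. Csf1, the growth factor of macrophages, was at 74.2, 103 and 72.7 TPM in the PBS lungs and 57.3, 55.0 and 69.5 TPM in the nanocapsule lungs, a difference of -0.44 (SE 0.16). Osm, a cytokine of the interleukin 6 family, had a difference of -0.32, and Ccl2, which draws monocytes, was 0.39 higher. The cytokines Il6, Tnf and Il1b, which are raised in acute inflammation, had differences of -0.23, -0.33 and -0.21, and none reached an unadjusted p of 0.05.

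**Figure D5:**
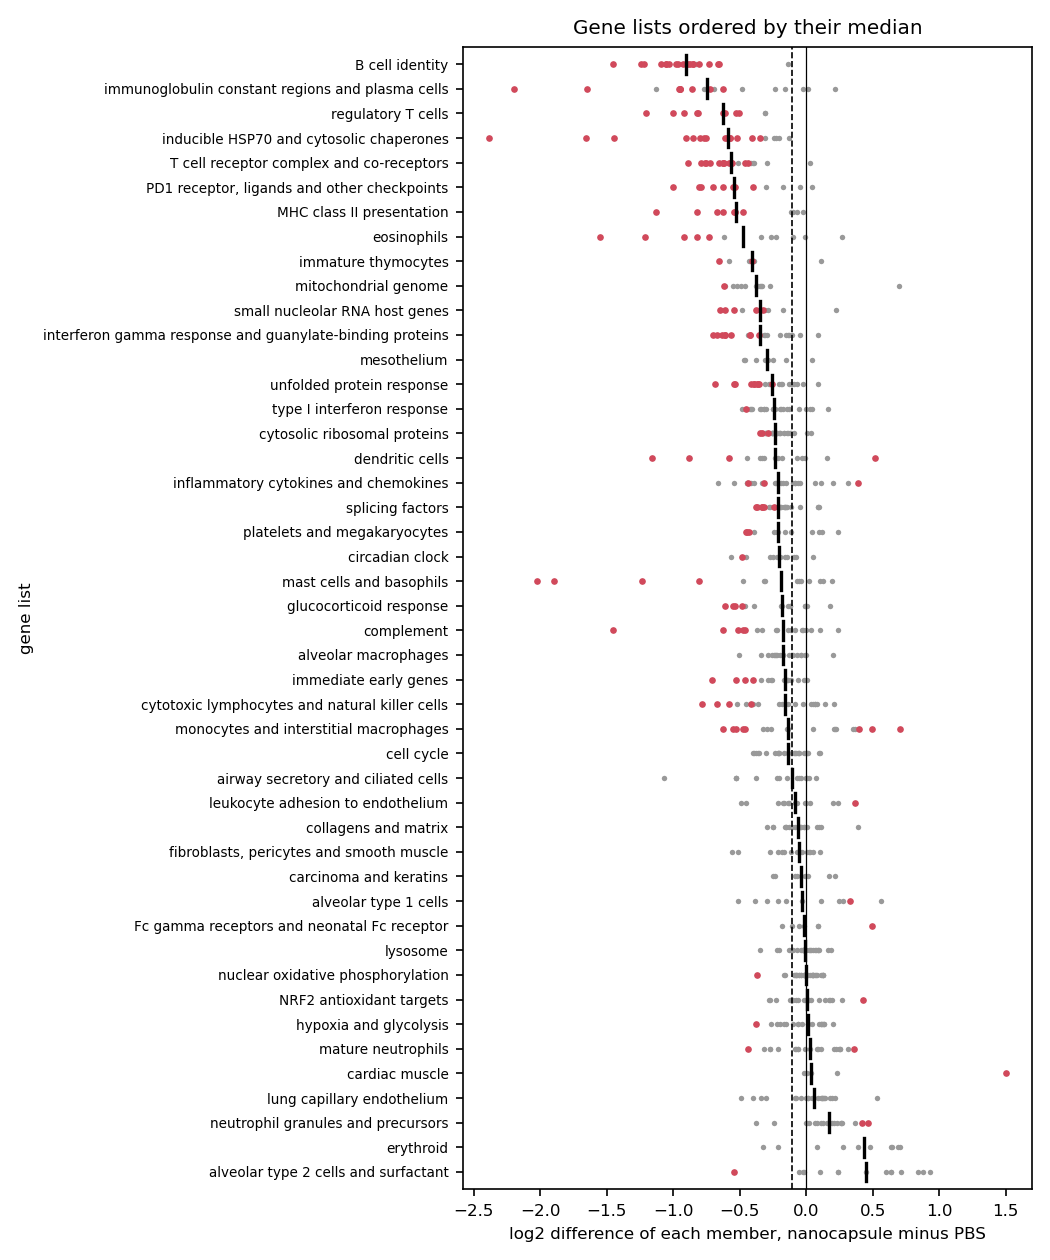
Log2 difference, nanocapsule minus PBS (horizontal axis), of each tested member of the 46 lists with at least 5 tested members, red where the unadjusted p was under 0.05, with the list median as a black bar. The solid line is 0 and the dashed line is the median of all genes tested at -0.11, and the lists run from B cell identity at -0.91 to alveolar type 2 cells at 0.45.

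Structural cells of the lung gave few differences. Of 15 genes of alveolar type 2 cells, which make surfactant, 11 had higher means, the median was 0.45 and 1, the desaturase Scd1, was lower at an unadjusted p under 0.05. Sftpc was at 804, 343 and 1021 TPM in the PBS lungs and 3410, 629 and 914 TPM in the nanocapsule lungs, so nanocapsule 1 alone stood out. Without nanocapsule 1 the median of the list was -0.02, and without both Rag1-high lungs 8 members were higher at that p. Of 11 alveolar type 1 genes 1 was higher at p under 0.05. It was Hopx, a homeodomain gene of these gas-exchange cells, at 70.7, 80.2 and 75.0 against 95.2, 96.8 and 92.1 TPM, without overlap, a difference of 0.33 (SE 0.10). Ager, the classical type 1 marker, overlapped, at 17.0, 17.1 and 27.5 against 44.2, 14.8 and 20.6 TPM. The list median was -0.03, but 0.05 with median-of-ratios scaling, 0.11 with quantile normalization and -0.23 to 0.23 with single lungs left out.

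Among 23 genes of lung capillary endothelium none had an unadjusted p under 0.05, and the median was 0.06, but -0.33 without PBS 2 and -0.21 without nanocapsule 1. Pecam1, the endothelial adhesion molecule CD31, was at 22.9, 19.0 and 30.1 TPM in the PBS lungs and 21.4, 12.2 and 17.1 TPM in the nanocapsule lungs, and overlapped. Of 15 genes of leukocyte adhesion, 1 passed that p, Selplg, the selectin ligand of leukocytes, 0.37 higher. No member passed in the lists of airway cells (16 genes), collagens and matrix (20), fibroblasts, pericytes and smooth muscle (16) or mesothelium (8), with medians of -0.11, -0.07, -0.06 and -0.30. Without PBS 2, 6 airway and 6 mesothelium genes were lower at that p, and the mesothelium median was -0.63, while it was 0.03 without PBS 1. The first 3 medians turned to 0.01, 0.04 and 0.02 with median-of-ratios scaling. Col1a1, the main fibrillar collagen gene, was at 22.9, 9.66 and 15.2 against 15.8, 14.0 and 10.9 TPM, a difference of -0.16 (SE 0.27) that was 0.13 without PBS 1.

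Carcinoma and keratin genes, listed because 4T1 tumours seed the lung, had no member of 9 at an unadjusted p under 0.05 and a median of -0.04, which was 0.07 with median-of-ratios scaling and 0.12 with quantile normalization. Epcam, an epithelial surface protein of both normal and tumour epithelium, was at 20.02, 10.2 and 13.2 TPM in the PBS lungs and 18.2, 14.8 and 16.3 TPM in the nanocapsule lungs. Cell cycle genes had lower means in 23 of 27, none at p under 0.05 and a median of -0.13, which was 0.01 with quantile normalization. With median-of-ratios and quantile scaling, 14 and 12 of the 27 had lower means. Mki67, the proliferation marker, was at 8.89, 6.38 and 8.28 against 5.10, 5.41 and 6.70 TPM, with PBS 2 within the nanocapsule range. Without PBS 2, 10 cell cycle genes were at p under 0.05, all lower.

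Levels of marker genes of blood and neighbouring tissue varied within groups, and where their transcripts came from was not tested. Erythroid genes had a median of 0.43 and no member of 10 at p under 0.05, and the median was -0.08 without nanocapsule 1. Haemoglobin transcripts made up 0.349 to 1.32% of TPM in PBS lungs and 0.389 to 2.10% in nanocapsule lungs. Platelet genes had 3 of 13 members at p under 0.05, all lower, with a median of -0.21, a number that was 0 without PBS 3, nanocapsule 1 or nanocapsule 3 and with median-of-ratios or quantile scaling, 1 without PBS 1 and 7 without PBS 2. Of 5 tested cardiac genes Myl7 was higher at p under 0.05 (difference 1.503, SE 0.49), and of 4 skeletal muscle genes Mylpf was lower. Myl4, Mybpc3 and Ckm, also cardiac genes, overlapped and differed by -0.01, 0.03 and 0.23. No tested adipose gene of 4 passed.

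The genes with the smallest p in the higher direction belonged to no single list. Cox7a1 (chromosome 7 from 30184144 to 30186078), a muscle-type subunit of cytochrome c oxidase, was at 4.26, 3.91 and 3.02 TPM in the PBS lungs and 7.80, 7.81 and 8.63 TPM in the nanocapsule lungs. The gap was wide beside the spread in either group, with a difference of 0.95 (SE 0.17, limma adjusted p = 0.157). The heart gene Myl7 was at 1.46, 0.409 and 2.08 against 7.76, 1.69 and 9.31 TPM, while the heart genes Myl4 and Mybpc3 differed by -0.01 and 0.03. Whether muscle tissue in the lung pieces contributed to Cox7a1 was not tested. Man2c1os, an antisense RNA of the mannosidase gene Man2c1, was at 0.948, 1.39 and 1.06 against 3.46, 2.93 and 2.89 TPM, a difference of 0.94 (SE 0.19). Whether counting used the strand was not given in the sources used here, so its reads and those of Man2c1 may not be told apart.

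Gss, the glutathione synthetase gene, was also among them and was at 6.06, 7.27 and 7.56 TPM in the PBS lungs and 10.8, 9.70 and 10.1 TPM in the nanocapsule lungs, a difference of 0.50 (SE 0.15). Ethe1, the mitochondrial persulfide dioxygenase, was at 26.7, 32.9 and 32.8 against 41.2, 43.7 and 38.7 TPM, and Mgst1, a microsomal glutathione transferase, at 324, 304 and 296 against 368, 395 and 395 TPM. All 3 genes separated the groups. The wider NRF2 antioxidant list did not, with 1 of 20 members at p under 0.05, the glutathione reductase gene Gsr (0.43 higher), and a median of 0.00. The higher number was 5 without PBS 2 and 0 without PBS 1, PBS 3, nanocapsule 2 or nanocapsule 3, and 2 were lower without nanocapsule 3. Tnfsf13b, the B cell survival factor BAFF, was at 2.96, 3.06 and 2.73 TPM in the PBS lungs and 4.30, 4.61 and 6.70 TPM in the nanocapsule lungs, 0.64 higher, and its receptor gene Tnfrsf13c, a B cell gene, had a difference of -1.05.

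The others of this rank were Fbxl2 (0.78 higher), Xkr8 (0.62), Fignl2 (0.54) and Lamtor4 (0.39), each without overlap. The last encodes a subunit of the lysosomal Ragulator complex, and Xkr8 a phospholipid scramblase. The largest differences of all in this direction, 2.26 for Mir6236 and 2.14 for the histone gene Hist2h2aa1, came from genes listed at 0 in 1 PBS lung each. Among lower genes outside the lists, Hist1h2ai was at 2.25, 4.90 and 7.69 TPM in the PBS lungs and listed at 0, 0.719 and 0 TPM in the nanocapsule lungs. It passed the filter only through the PBS lungs, where it was higher. Of 44 tested genes of the histone clusters, grouped by symbol after the data were seen, 5 were lower and 2 higher at an unadjusted p under 0.05, and their median was -0.13, so the histone genes did not share a direction.

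Srrt, a factor that couples the cap of nascent RNA to its processing, was at 73.5, 74.6 and 75.5 TPM in the PBS lungs and 46.7, 45.8 and 53.1 TPM in the nanocapsule lungs. The 3 PBS lungs were nearly equal, and the difference was -0.61 (SE 0.10, limma adjusted p = 0.136). Of 28 splicing factors, 25 had lower means, 6 had an unadjusted p under 0.05 and in 11 the groups did not overlap, with a median of -0.21. Hnrnph1 was at 128, 135 and 133 against 103, 103 and 107 TPM, a difference of -0.33 (SE 0.09). The number at p under 0.05 was 3 without PBS 1, 10 without PBS 2, 2 without PBS 3 or nanocapsule 1, 1 without nanocapsule 2 and 11 without nanocapsule 3. It was 2 with median-of-ratios scaling, 10 with no filter on low values and 0 without both Rag1-high lungs.

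Host genes of small nucleolar RNAs had lower means in 9 of 10, 5 at an unadjusted p under 0.05, with a median of -0.35. Gas5, whose spliced RNA is degraded during translation, was at 69.6, 76.9 and 88.2 TPM in the PBS lungs and 58.0, 42.8 and 48.3 TPM in the nanocapsule lungs, a difference of -0.65 (SE 0.14). The number was 3 without PBS 1, nanocapsule 1 or nanocapsule 2 and 2 without PBS 3, nanocapsule 3 or both Rag1-high lungs, and 2 with median-of-ratios or quantile scaling. Ribosomal protein genes had lower means in 32 of 34 and 3 at p under 0.05, with a median of -0.24, and 27 were at p under 0.05 without PBS 2 and 0 without PBS 3, without both Rag1-high lungs or with median-of-ratios scaling. Mitochondrial genome transcripts followed PBS 2 in the same way, with 12 of 13 lower means, 1 at p under 0.05, 12 without PBS 2, 6 without nanocapsule 1 and none lower without any other single lung or with median-of-ratios scaling.

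Oxidative phosphorylation genes encoded in the nucleus were split evenly, 16 lower and 16 higher of 32, with a median of 0.00 and Atp5b alone at an unadjusted p under 0.05. Glycolysis and hypoxia genes had a median of 0.01 and 1 of 21 at that p, Slc16a3, the lactate exporter, lower by value at 584, 653 and 480 TPM in the PBS lungs and 375, 465 and 480 TPM in the nanocapsule lungs, where PBS 3 and nanocapsule 3 were nearly equal. Lysosomal genes had none of 27 and a median of -0.01. The medians of these 3 lists stood above that of all genes, -0.11, and were 0.12, 0.13 and 0.11 with median-of-ratios scaling, where that of all genes was 0.003.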

How the data were processed

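RNA sequencing was done on polyA RNA of lung tissue, per the labels' protocols. The deposited values are gene-level TPM, and every library sums to 1000000, so depth per library was unknown and no count test was used. Salmon appears in the deposited table's name, and DESeq2 and GRCm38 appear, without roles, in the submitters' processing notes. No aligner, strand setting or filter is given in the sources used here. Of the 9 columns, the 6 of the nanocapsule and PBS lungs were tested, and the 3 of the free antibody entered 1 alternative.

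Genes that reached 1 TPM in 3 or more of the 6 lungs entered a limma fit (version 3.58.1, R 4.3.3) of log2(TPM + 1) that allowed the variance to follow intensity. It had 4 residual degrees of freedom, and p-values were two-sided, with Benjamini-Hochberg adjustment over all 12610 genes. SE are those of this fit and SD are of TPM. The fit was tested on simulated data of 12610 genes. It recovered 73% of 2-fold changes and 94% of 4-fold changes, and made 12 false calls. Positions come from GENCODE M21 on GRCm38 (99.7% of tested genes). The members, the 49 gene lists and the tests were chosen with earlier results of these data known. Named genes were, in each direction, up to 15 with the smallest p and 10 with the largest difference among groups without overlap (mean of at least 1 TPM, no predicted genes, clones, pseudogenes or variable segments), the 4 smallest p of each list, and a fixed set that included Pdcd1, Cd274, Ifng, Cxcl9, Gzmb, Hsf1, Sftpc and Col1a1. Other members of the lists are named to show how their list varied, after their values were seen. Listed symbols not found in the table were left out, and a few genes of the lists are counted but not reported here by name. Alternatives changed the pseudocount, filter, scaling, variance model and lungs used. The omission of PBS 3 and nanocapsule 2 together was chosen after seeing the data.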

Additional observations from a re-analysis of the deposited data

How the results depend on the processing

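TPM keep no depth, so no counting error or detection limit could be given, and with 3 lungs a group the number of genes called by limma was not stable. It was 1 with all 6 lungs, 3 with all 9 lungs in the fit (Hspa1b, Dnaja1 and Trav5-1, adjusted p of Hspa1b 0.00576), and 0 to 57 with single lungs left out (2 without PBS 1, 57 without PBS 2, 0 without any other lung). It was 0 with no filter on low values, median-of-ratios scaling, quantile normalization, no intensity trend, and without PBS 3 and nanocapsule 2 (chosen after seeing the data). Lower and higher genes at an unadjusted p under 0.05 in those 5 fits numbered 1293 and 240, 668 and 477, 626 and 537, 1056 and 112, and 332 and 120, against 1057 and 126. They numbered 517 to 1758 and 83 to 215 with single lungs left out, and 191 were higher after rescaling without S100a8, S100a9, mitochondrial, haemoglobin and immunoglobulin genes.

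Hspa1b kept its direction, at -2.39 with no filter (adjusted p = 0.438) and with no trend (0.104), -2.27 with median-of-ratios scaling (0.131), -2.25 with quantile normalization (0.176) and -2.55 without PBS 3 and nanocapsule 2 (0.115). It lay at -2.60 to -2.17 with single lungs left out, with adjusted p from 0.00836 to 0.284. Genes without overlap between the groups numbered 875 lower with quantile normalization against 1522, and 495 with no filter, 848 with median-of-ratios scaling, 982 with quantile normalization and 1308 without PBS 3 and nanocapsule 2 on the higher side, against 305. With single lungs left out, they numbered 1773 to 4070 lower and 505 to 778 higher, where fewer lungs have to be in order. The median over all genes was 0.0027 with median-of-ratios scaling and 0.017 with quantile normalization, against -0.11, and -0.16 to -0.06 with single lungs left out. Except for these fewer lungs, the cause was not tested.

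For 150 named genes, 2813 alternative values were computed, of which 2732 kept direction and side of the threshold, 17 passed the threshold (15 of them without PBS 2) and 64, from 19 genes, changed sign. None of the 19 was called. With median-of-ratios scaling the log2 differences were 0.053 for Clec9a, 0.095 for Ctss, 0.061 for Fos, 0.053 for H2-DMa, 0.063 for Kit, 0.052 for Mcpt8, 0.11 for Siglecf and 0.098 for Xbp1. With quantile normalization they were 0.12 for Clec9a, 0.11 for Ctss, 0.0027 for H2-DMa, 0.10 for Kit, 0.021 for Mcpt8, 0.074 for Siglecf and 0.0078 for Xbp1. After the rescaling they were 0.010 for Clec9a, 0.0034 for Ctss, 0.023 for Siglecf and 0.0062 for Xbp1. Without PBS 3 and nanocapsule 2 they were 0.20 for Ccl11, 0.034 for Cd8a, 0.35 for Clec9a, 0.15 for Ctss, 0.095 for H2-DMa, 0.26 for Igha, 0.17 for Siglecf and 0.078 for Xbp1. With single lungs left out the differences spanned -0.19 to 0.57 for Ager, -0.43 to 0.024 for Ccl11, -0.69 to 0.12 for Cd8a, -0.17 to 0.20 for Clec9a, -0.45 to 0.13 for Col1a1, -0.19 to 0.084 for Ctss, -0.30 to 0.030 for Cxcl9, -0.82 to 1.199 for Dntt, -0.15 to 0.061 for Fos and -0.12 to 0.44 for Gzmb. They spanned -0.24 to 0.031 for H2-DMa, -0.13 to 0.16 for Havcr2, -0.71 to 0.12 for Igha, -0.22 to 0.15 for Kit, -0.25 to 0.059 for Mcpt8, -0.075 to 0.41 for Sdc1, -0.23 to 0.12 for Siglecf, -0.069 to 0.40 for Tsc22d3 and -0.11 to 0.052 for Xbp1. The cause was not tested. Of 986 medians of 52 gene groups under the alternatives, 44 moved by more than the spread between replicates.

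Whether the replicate numbers pair the lungs could not be decided, since 3 lungs a group give too few deviations to compare. Deviations from the group means correlated at 0.058, 0.177 and -0.134 between lungs of the same number. Nanocapsule 1 correlated best with PBS 3 (0.251), and nanocapsule 2 with PBS 2 (0.177). A fit with the replicate number as a block gave 1 called gene, Hspa1b (adjusted p = 0.0276), with 1354 lower and 149 higher genes at an unadjusted p under 0.05.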
